A study of Marchantia polymorpha and Arabidopsis thaliana and Oryza sativa Japonica Group with 80 samples.

Results

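The 150 rice genes described here are those whose RNA was lowered most between 0 h and 24 h in salt-treated seedlings. They were chosen by the data themselves. Counts were scaled by the total of each library to CPM, the usual unit of relative RNA level, and the level of a gene at a time was its mean log2(CPM + 1) over 3 libraries. Among gene identifiers starting with OS that had a mean of at least 5 CPM at 0 h, the 150 with the greatest difference between 0 h and 24 h were taken. This left 150 of 16588 genes past that minimum, of 37830 such identifiers and of 91080 features in the rice table. All 150 also passed the filter on low counts used for the tests. They are ranked from 1, the greatest fall, to 150. Because the fall at 24 h chose them, it is given below as a description, and nothing is read from the test calls printed with it.

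The series holds 80 samples of 3 plant species, and 9 of them are rice. The rice samples are whole 7-day-old seedlings labelled NB, wild type, grown on plates of half-strength Murashige and Skoog medium with 16 h of light and 8 h of dark. They were treated with 100 mM NaCl, per the design text, and taken at 0, 2 and 24 h by their titles, with 3 libraries per time. The sheet that lists the rice libraries writes the code Cnt before every time, and the treatment protocol lists times without 2 h, so the treatment of the rice libraries rests on the design text. No untreated library was taken after 0 h, and the hour of day of each harvest is not given. Salt, time of day, handling and growth therefore cannot be told apart in any of these differences. The design text calls the replicates biological and does not say how the seedlings were divided, so p-values measure the spread between these libraries only.

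High salt first limits water uptake by the root and later lets sodium build up in the shoot. Seedlings answer the first phase within hours, and growth and nutrient uptake are commonly reduced, so RNA that falls can belong to growing, absorbing or light-dependent tissues. In bulk RNA from whole seedlings, fewer cells of a type and less RNA per cell cannot be told apart. The identifiers carry the chromosome in the digits after OS and rise along it. Neither the tables nor the reference used here pairs any of them with a gene name, so no name or function is given, 4 identifiers are printed, and other genes are called by their rank. For the same reason the tissue label was not checked against marker genes, and the pathway lists drawn up for this work were not applied.

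The libraries were unequal in depth, and 1 of them stood apart over all features as well as in the 150 genes. Replicate 1 of each time had 10142302 to 11253903 counted reads, and replicates 2 and 3 had 23888570 to 29473283. The library names start with RUR for replicate 1 and with RUU for the others, at every time, so a difference between these names does not follow time. Replicate 3 at 0 h held the highest of the 3 levels in 111 of the 150 genes (74.0%), against 42.0% of all 16588 genes. It lay more than 1 log2 unit above the mean of the other 0 h libraries in 54 of the 150, and in 4.87% of all 16588. Over all features tested, replicate 3 at 0 h also had the widest spread around the mean of its time. Its SD was 0.5 log2 units, against 0.208 to 0.419 in the others. It held the lowest level of its time in 44.2% of all 16588 genes, as did replicate 1 at 0 h. Replicate 1 was the lowest of its time at all 3 times in 58 of the 150 (38.7%), against 8.99% of all genes. The rule used the 0 h and 24 h libraries, so these shares of the 150 are not independent of the choice. The part of single 0 h and 24 h libraries in the choice of genes is measured below by leaving them out.

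**Figure D1:**
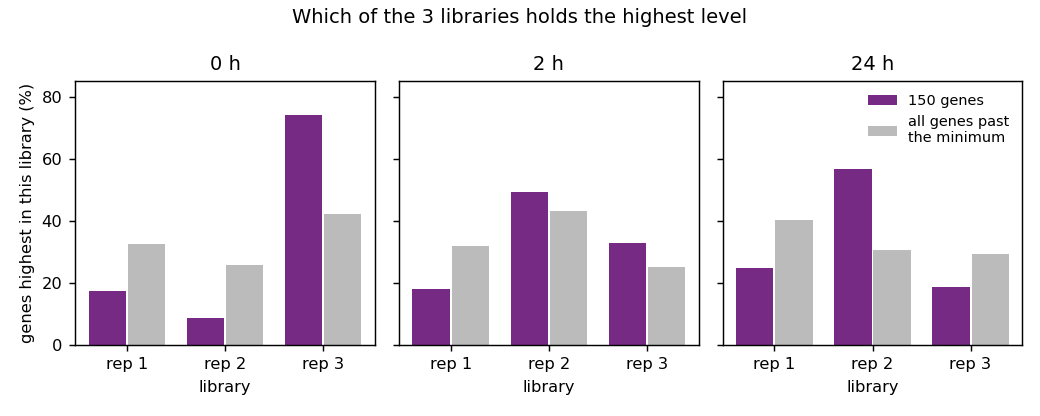
The bars give the percentage of genes whose highest level within a time lies in replicate 1, 2 or 3, for the 150 genes (purple) and for all 16588 genes past the minimum (grey). At 0 h replicate 3 holds the highest level in 74.0% of the 150 genes and in 42.0% of all genes. The rule used the 0 h and 24 h libraries, so the purple bars of these times are not independent of the choice.

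The fall at 24 h ranged from 1.28 to 3.33 on the log2(CPM + 1) scale, with a median of 1.67, which is a 3.19-fold lower level. Over all 16588 genes the median difference was close to 0 (-0.01). In 36 of the 150 the fall was above 2, and in 3 of them it was above 3. The median of the mean levels was 21.2 CPM before treatment, 10.3 CPM at 2 h and 4.88 CPM after 24 h, when 11 genes were under 1 CPM. The 24 h libraries all lay below the 0 h libraries in 126 of the 150, in 15% of the 24999 features tested and in 17.6% of the 16588 genes. By edgeR's quasi-likelihood test, explained below, 110 of the 150 were called lower and 0 higher at 24 h against 0 h. The test called 4.28% of all features lower and 4.3% higher, and of the 16588 genes 5.14% and 3.94%. The choice of genes set these counts, and nothing is read from them. At the edge of the list, the last 5 of the 150 had differences of 1.29, 1.29, 1.29, 1.28 and 1.28, and the next 5 genes, just outside, had 1.28, 1.27, 1.27, 1.27 and 1.25.

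The gene ranked 1, OS03G0836800 on chromosome 3, stood at 28.2, 14.9 and 25.3 CPM at 0 h in replicates 1, 2 and 3. Its 2 h libraries read 15.9, 9.41 and 11.9 CPM, and its 24 h libraries 0.887, 2.29 and 0.921 CPM. Its 2 h and 0 h values overlapped, and its 24 h values lay far below both. The gene ranked 2, OS01G0348800 on chromosome 1, went from 17.8, 20.4 and 26.6 CPM at 0 h to 7.91, 8.11 and 6.11 CPM at 2 h, and ended at 1.58, 1.16 and 1.26 CPM. Here the 3 times formed 3 separate steps. The gene ranked 3, on chromosome 10, held its level for 2 h, with 87.9, 91.5 and 123 CPM at 0 h and 95.4, 92.3 and 70.0 CPM at 2 h, and then stood at 10.6, 12.6 and 10.9 CPM at 24 h. The gene ranked 4, on chromosome 6, was uneven within each time. It read 19.8, 47.6 and 118 CPM at 0 h, 1.69, 21.7 and 20.2 CPM at 2 h, and 0.986, 16.7 and 6.36 CPM at 24 h. Replicate 1 was its lowest library at every time, and the 0 h value of that library lay inside the range seen at 2 h.

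**Figure D2:**
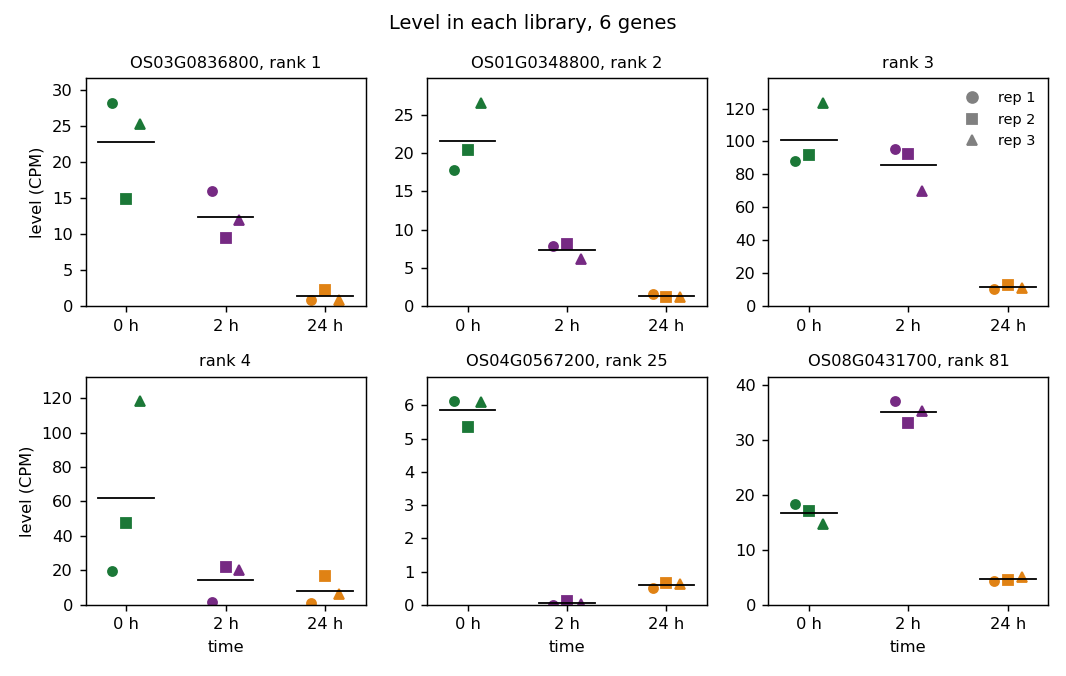
Each panel shows 1 gene, with its level in CPM in each of the 9 libraries (symbols stand for replicates) and the mean of each time as a line. Ranks 1, 2 and 3 are low in all 24 h libraries, rank 4 is uneven within each time, rank 25 is near 0 at 2 h, and rank 81 is highest at 2 h.

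The other genes among the 10 highest scores showed the same kinds of course. Rank 6, on chromosome 10, read 48.5, 84.2 and 144 CPM at 0 h and 9.96, 12.3 and 12.1 CPM at 24 h. Rank 8, also on chromosome 10, read 79.8, 77.8 and 112 CPM at 0 h, 92.9, 75.5 and 64.4 CPM at 2 h, and 13.8, 14.1 and 13.1 CPM at 24 h. Both were tight at 24 h and wider at 0 h. Rank 10, on chromosome 12, was the most read of the 10, with 1279, 991 and 2027 CPM at 0 h, 956, 789 and 849 CPM at 2 h, and 269, 231 and 198 CPM at 24 h. Ranks 5, 7 and 9, on chromosomes 3, 5 and 9, were high in replicate 3 at 0 h (36.0, 36.6 and 14.7 CPM) and low in replicate 1 at 0 h (6.12, 2.78 and 2.23 CPM). At 24 h the 3 libraries of these genes lay between 0.0986 and 3.04 CPM.

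Summed over the 150 genes, the RNA took 1.30% ± 0.20 (SD, n = 3) of counted reads at 0 h, 0.873% ± 0.053 at 2 h and 0.357% ± 0.013 at 24 h. Ranks 46, 85, 10 and 126 took 50.4% of that sum at 0 h, a share of reads that also depends on transcript length. Without these 4 genes the sum was 6454 ± 1820 CPM at 0 h, 3545 ± 471 at 2 h and 1775 ± 267 at 24 h (SD, n = 3). In both sums the libraries of the 3 times did not overlap.

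**Figure D3:**
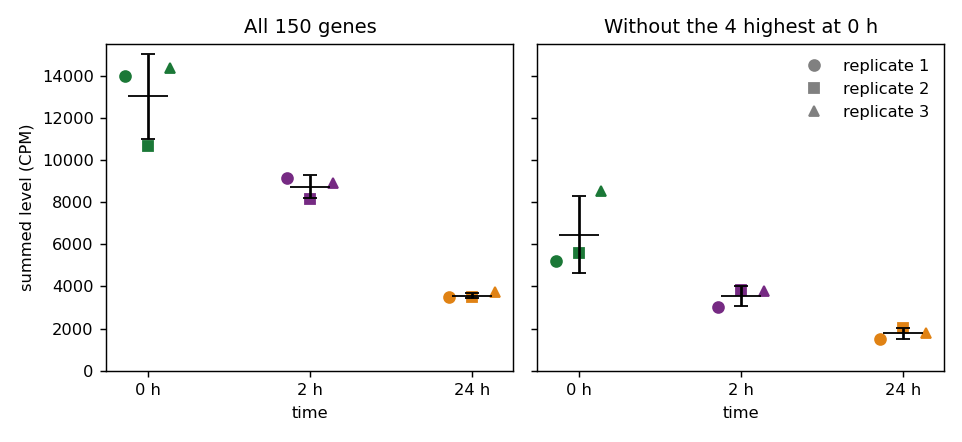
The points give the summed level of the 150 genes in CPM in each library, for all of them (left) and without the 4 highest at 0 h (right), and the bars give the mean ± SD of 3 libraries. In both panels the sum steps down from 0 h to 2 h and from 2 h to 24 h with no overlap.

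The list changed in part with the library that stood apart. When the same rule was applied without replicate 3 at 0 h, 113 of the 150 were chosen again, 15 fell under the 5 CPM minimum, and the lowest rank of the rest was 365. Without replicate 3 at 0 h the median difference of the 150 was 1.46, none was negative and 136 were above 1. Leaving out any other single library of 0 h or 24 h, the rule chose 127 to 136 of the 150 again. With replicate 1 alone the median difference was 1.65, and 149 of the 150 were lower at 24 h. With replicates 2 and 3 it was 1.74 and all 150 were lower. All these libraries helped to choose the genes. The differences and counts of the 150 in these subsets were therefore largely set by the choice, and nothing is read from them. The spread was wider in these genes than in all 16588 at every time. The median range over the 3 libraries was 1.17, 0.78 and 0.57 log2 units at 0, 2 and 24 h, against 0.47, 0.29 and 0.20 for all 16588. The rule used the 0 h and 24 h libraries, so the choice can widen these ranges. The 16588 genes include the 150 and were not matched to them in level.

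The 2 h libraries played no part in the choice and show how early the genes were lowered. On the log2(CPM + 1) scale the difference present at 2 h had a median of 62.0% of that at 24 h, with quartiles of 27.0% and 92.1%. Both differences use the same 0 h libraries, so a high 0 h value raises both. In 35 genes under 25% of the fall was there at 2 h, in 55 genes 25 to 75%, and in 60 over 75%. Of those 60, 21 were lower at 2 h than at 24 h. By mean level 7 genes were higher at 2 h than at 0 h. These limits were set after the values were seen. The late and the early genes also differed in the libraries named above. Replicate 1 was the lowest library at all times in 2 of the 35 late genes, in 13 of the 55 between and in 26 and 17 of the 39 and 21 early ones. Replicate 3 at 0 h was the highest of its time in 54.3% of the 35 late genes, in 76.4% of the 55 between, and in 76.9% and 95.2% of the 39 and 21 early ones. The median range over the 0 h libraries was 0.80, 1.07, 1.46 and 1.54 log2 units in the same order. The part of these libraries in the early course was not tested.

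**Figure D4:**
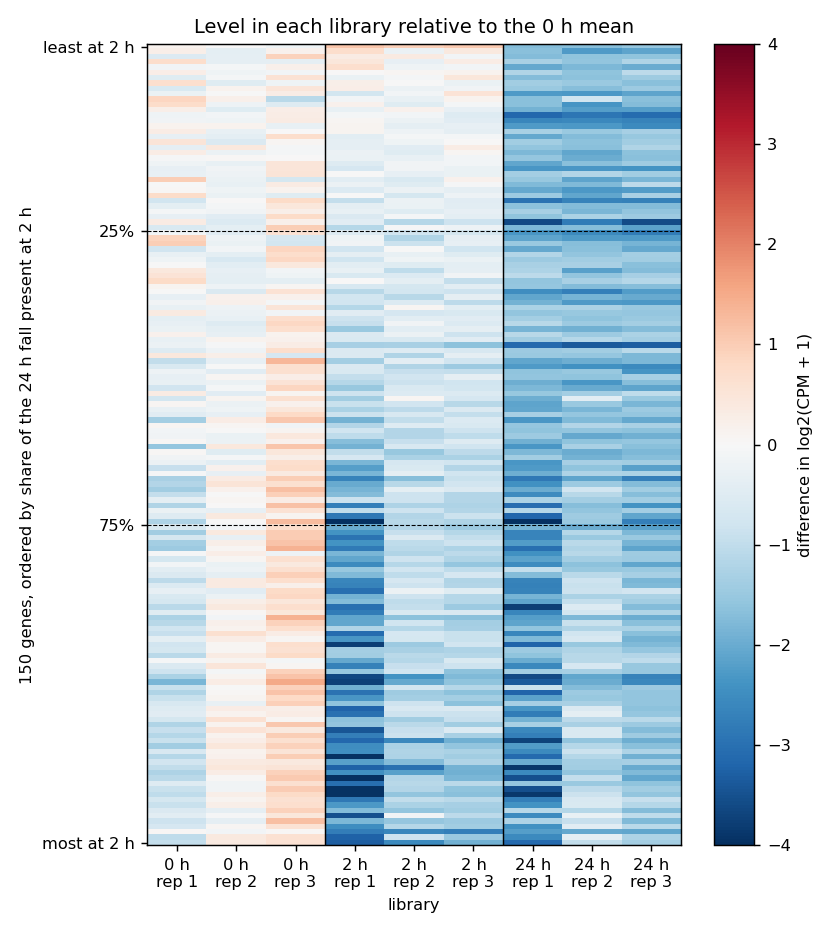
Each row is 1 of the 150 genes and each column 1 of the 9 libraries, and the colour gives the difference of log2(CPM + 1) from the gene's 0 h mean, with a scale that ends at 4 in either direction (3 values lie past it). Rows are ordered by the share of the 24 h fall present at 2 h, and dashed lines mark 25% and 75%. The 35 genes under 25% are pale at 2 h, and the 60 over 75% are about as dark at 2 h as at 24 h.

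The 2 h libraries were compared with the 0 h libraries for every feature with edgeR's quasi-likelihood test and Benjamini-Hochberg adjustment, and a call is an adjusted p below 0.05. Of the 150 genes 10 fell and 1 rose. Of all 24999 features tested 0.316% fell and 0.596% rose, and of the 16588 genes past the CPM minimum 0.301% and 0.38%. The median log2 fold change of the 150 was -1.18, with 144 negative and 6 positive, and over all features it was -0.01. The 2 h libraries all lay below the 0 h libraries in 72 of the 150, in 6.4% of all features and in 6.55% of the 16588 genes. They all lay above in 1 of the 150, against 9.47% and 9.54%. The 0 h libraries that helped to choose the genes enter this comparison, so the counts are not independent of the choice. In replicate 1 alone 139 of the 150 were lower at 2 h, with a median difference of -0.95, and in replicates 2 and 3 139 were lower, with a median of -1.04. Of all 16588 genes 45.1% and 48.6% were lower in the same libraries. The count of falls moved with the fit in both directions. Leaving out 1 library, it was 4, 6, 3, 3, 4, 3 and 3 without 2 h replicate 1, 24 h replicate 1, 0 h replicate 2, 2 h replicate 2, 24 h replicate 2, 2 h replicate 3 and 24 h replicate 3, and 31 without 0 h replicate 1. It was 9 without 0 h replicate 3. Over these fits the share of all features called lower ran from 0.0633% to 0.914%. With all 9 libraries it was 26 with no filter on low counts and 51 by DESeq2, against 0.342% and 1.68% of all features. It was 39 with the replicate number as a block, against 0.472% of all features. With the start of the library name as a term, an alternative chosen after seeing the data, it was 54, against 0.768%.

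Of the 10 that fell, OS04G0567200 on chromosome 4, rank 25, was nearly lost at 2 h. It had 66, 147 and 164 reads in the 0 h libraries, 0, 3 and 1 reads in the 2 h libraries, and 5, 19 and 15 reads at 24 h. These are 6.12, 5.35 and 6.12 CPM for the 0 h libraries, 0, 0.111 and 0.0339 CPM for 2 h, and 0.493, 0.649 and 0.628 CPM for 24 h. All libraries of 1 time lay apart from those of the others. Per counted read the 0 h libraries held 98.1 times as many reads as the 2 h libraries, with an exact Poisson 95% interval of 38 to 362 that covers counting error only. The edgeR adjusted p at 2 h was 7.05e-05, and it stayed called in 16 of 16 alternatives (5.58e-15 to 0.00775). OS01G0348800, rank 2, fell by 1.58 ± 0.18 (log2, SE; edgeR adjusted p = 0.00469) and stayed called in 15 of 16 alternatives (7.37e-11 to 0.0536).

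Other falls at 2 h were less steady. Rank 42, on chromosome 7, read 3.43, 11.9 and 18.8 CPM at 0 h and 0.889, 1.33 and 1.73 CPM at 2 h (log2 fold change -3.08 ± 0.57, edgeR adjusted p = 0.0421). Rank 36, on chromosome 10, read 12.9, 19.03 and 34.1 CPM at 0 h and 4.44, 8.48 and 6.89 CPM at 2 h (log2 fold change -1.74 ± 0.33, edgeR adjusted p = 0.045). Rank 117, on chromosome 4, read 11.1, 19.6 and 29.2 CPM at 0 h and 6.58, 7.04 and 7.36 CPM at 2 h (log2 fold change -1.54 ± 0.28, edgeR adjusted p = 0.0421). In each of them the groups did not overlap and 0 h replicate 3 was the highest library. Leaving out 0 h replicate 2, or any 1 library of 2 h or 24 h, ended the call of each of these 3 genes by edgeR, with an adjusted p of 0.052 to 0.176. Over all their alternatives the adjusted p ran from 4.72e-06 to 0.176.

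The gene that rose at 2 h was OS08G0431700 on chromosome 8, rank 81. It read 18.4, 17.03 and 14.8 CPM at 0 h, 37.0, 33.0 and 35.3 CPM at 2 h, and 4.34, 4.47 and 5.11 CPM at 24 h. All 3 libraries of 2 h were above those of 0 h, and all 3 of 24 h were below them. The log2 fold change at 2 h was 1.05 ± 0.14 (edgeR adjusted p = 0.00889). The call ended without 0 h replicate 2 (adjusted p = 0.0501) and held in 14 of 16 alternatives (1.06e-08 to 0.0792).

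From 2 h to 24 h, 42 of the 150 fell and 1 rose by edgeR, against 1.02% and 1.04% of all features tested and 0.977% and 0.826% of the 16588 genes. The median log2 fold change was -0.80, and over all features it was 0.01. The 24 h libraries all lay below the 2 h libraries in 74 of the 150, in 15% of all features and in 16.9% of the 16588 genes. They all lay above in 1 of the 150, against 14.1% and 14.2%. Here the 24 h libraries are shared with the choice of genes. The gene that rose was OS04G0567200, rank 25, by 3.27 ± 0.49 from its few reads at 2 h (edgeR adjusted p = 0.00998). None of the 150 was called higher without 24 h replicate 2 or 2 h replicate 3, while 73 and 47 of all features were. OS08G0431700, rank 81, fell (log2 fold change -2.90 ± 0.15, edgeR adjusted p = 5.85e-05), as did OS03G0836800, rank 1 (-3.06 ± 0.41, edgeR adjusted p = 0.00553), and rank 3 (-2.90 ± 0.17, edgeR adjusted p = 8.41e-05). The count of 42 became 25, 20, 20, 21 and 24 without 2 h replicate 1, 24 h replicate 1, 24 h replicate 2, 2 h replicate 3 and 24 h replicate 3, and 69 without 0 h replicate 3. In the same fits the count over all features went from 254 to 102, 72, 61, 79 and 77, and to 911.

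Some of the 150 genes are neighbours. Among the 16588 genes ordered by identifier, 31 of the 150 (20.7%) stood directly next to another of the 150, in 12 runs, of which 3 had 4 genes, 1 had 3 and 8 had 2. Of all 16588 genes 1.74% stood next to 1 of the 150. By chromosome, the 150 made up 0.904% of the 16588 genes on average, with the highest share on chromosome 10 (15 genes, 1.81%) and the lowest on chromosome 9 (3 genes, 0.335%). Adjacent genes are often copies of each other, and reads can be split between near-identical copies. The library sheets list 0 reads as mapping to several places, and how such reads were treated is not stated, so the levels of neighbours that are copies would be uncertain.

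The run on chromosome 8 held ranks 46, 85, 68 and 16 and took the most reads. Its 4 genes summed to 5984, 3054 and 2555 CPM at 0 h, 3843, 2406 and 3285 CPM at 2 h, and 1212, 764 and 1239 CPM at 24 h. The 2 h and 0 h libraries overlapped and the 24 h libraries lay below both, and replicate 1 was the highest at 0 h, unlike in most of the 150. A run on chromosome 10 held ranks 36, 8, 3 and 44. It summed to 195, 203 and 288 CPM at 0 h, 218, 190 and 156 CPM at 2 h, and 32.2, 34.9 and 31.0 CPM at 24 h, a mean 6.99-fold lower at 24 h than at 0 h. Rank 36 of this run was called lower at 2 h by edgeR, and ranks 8, 3 and 44 were not. From 2 h to 24 h the call was the reverse, with ranks 8, 3 and 44 called lower and rank 36 not.

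A second run on chromosome 10, with ranks 6, 45 and 115, summed to 82.6, 142 and 261 CPM at 0 h, 68.2, 113 and 84.8 CPM at 2 h, and 29.7, 34.1 and 30.3 CPM at 24 h. Its 24 h libraries were close to each other and below the rest. The run on chromosome 6, with ranks 119, 31, 28 and 4, had an early course. It summed to 65.4, 157 and 297 CPM at 0 h, 14.3, 60.9 and 56.2 CPM at 2 h, and 14.0, 70.1 and 39.7 CPM at 24 h. Replicate 1 was its lowest library at every time, its 24 h replicate 2 lay above its 0 h replicate 1, and edgeR called none of its 4 genes at 2 h against 0 h. A pair on chromosome 3, ranks 143 and 138, was lower at 2 h than at 24 h, with 94.4, 119 and 323 CPM at 0 h, 43.7, 50.6 and 55.9 CPM at 2 h, and 67.4, 74.3 and 44.4 CPM at 24 h. The 2 h and 24 h libraries of this pair overlapped.

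**Figure D5:**
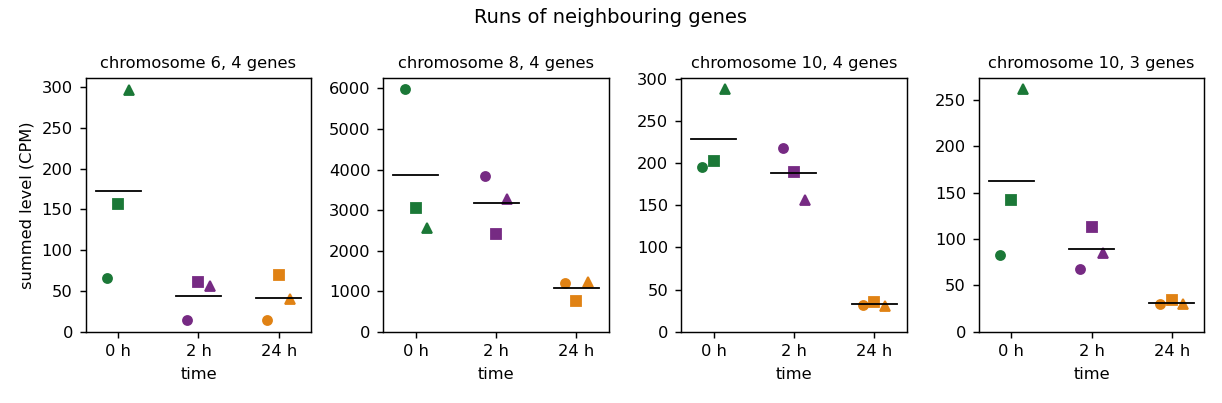
Each panel gives the summed level in CPM of 1 run of neighbouring genes in each library, with the mean of each time as a line. The runs on chromosomes 8 and 10 are lowest at 24 h, and the run on chromosome 6 is as low at 2 h as at 24 h by its means of 43.8 and 41.3 CPM.

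The counts used here take reads of 1 strand, and the 150 genes had few on the other. Reads on the other strand made up a median of 0.0692% of a gene's stranded reads in the 150, and 0.0815% in all 16588. In 6 of the 150 (4.0%) they made up over 5%, against 2.79% of all genes. In rank 80 they made up 72.1%, so its level rests on the smaller part of its reads. In 19 of the 150 (12.7%), and in 12.4% of all genes, the count for either strand was under 50% of the count used. In rank 42, called lower at 2 h, it was 4.93% of the count used. The fit on counts for either strand gave no value for rank 42. With counts for either strand the rule chose 134 of the 150 again, and 6 of the 150 were called lower at 2 h, against 0.229% of all features.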

How the data were processed

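RNA from 9 rice seedling libraries was analysed. Per the labels' protocols, extraction used an RNeasy plant kit and libraries followed Illumina's standard procedure. The submitters' processing notes name STAR and TAIR10. TAIR10 is an Arabidopsis build; for rice, the reference, annotation and aligner version are not given. The authors deposited counts per feature for each library (either strand, and each strand) and a combined table, which equals 1 of the strand columns. The combined counts were used as deposited, and summary lines were left out. Libraries were matched through the deposited condition sheet, which writes Cnt before every time.

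Features were kept by filterByExpr (24999 of 91080), scaled by TMM and tested two-sided with edgeR 4.0.16 in R 4.3.3, 1 coefficient per time, with all 9 libraries in 1 fit and adjustment over all features tested. Standard errors were obtained as |log2 fold change| over the square root of the F statistic. CPM are by column total. DESeq2 1.42.0 was an alternative. The genes and all lists were chosen with earlier results of these data known. Values are given for the 10 highest scores, for the 5 largest falls and rises among non-overlapping calls at 2 h, and for the 5 genes on either side of the edge of the list. The rule for values also named keyword classes, which could not be applied without rice annotation. Genes in runs of neighbours and ranks 46, 85, 126 and 80 were singled out after their values were seen. Counted reads per library ran from 10142302 to 29473283.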

Additional observations from a re-analysis of the deposited data

How the results depend on the processing

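Without 1 library the median log2 fold change of the 150 genes at 2 h ran from -1.35 to -0.90. With no filter on low counts the falls at 2 h were 26 of the 150 and 130 of all features. DESeq2 called 51 of the 150 lower at 2 h and 64 lower from 2 h to 24 h. Over all features it called 419 lower and 446 higher at 2 h and 623 and 559 from 2 h to 24 h, and at 24 h against 0 h 8.47% and 6.66% of features. With counts for either strand 6 of the 150 and 57 of all features fell at 2 h, and with the replicate block 39 and 118. Deviations of same-numbered libraries correlated by 0.139 to 0.31 in the 3 pairs of replicate 1 and by 0.189 to 0.252 in the 3 pairs of 2 h with 24 h. They correlated by -0.214 to -0.0207 in the 4 pairs that hold 0 h replicate 2 or 3. Not every pair is positive, so the numbers are not taken to pair the libraries. Some alternatives were chosen after seeing the data. With the start of the library name as a term, 54 of the 150 and 192 of all features fell at 2 h. With the libraries named RUU alone, the falls among the 150 were 4 at 2 h and 13 from 2 h to 24 h, with 0 rises at either step. Over all features this fit called 10 lower and 25 higher at 2 h, 35 and 27 from 2 h to 24 h, and 1.31% and 1.51% of features at 24 h against 0 h. Without 1 library, falls and rises among the 150 were 3 to 31 and 0 to 1 at 2 h, and 20 to 69 and 0 to 1 from 2 h to 24 h. Over all features they were 16 to 233 and 48 to 242 at 2 h, 61 to 911 and 47 to 779 from 2 h to 24 h, and 0.615% to 11.5% and 1.2% to 8.42% of features at 24 h against 0 h. The rule chose 113 to 136 of the 150 again without 1 library and 143 with a pseudocount of 0.5. With a minimum of 10 CPM it kept 112. That minimum only removes genes below it and the others stay, so the 0 h levels set this count. The median log2 fold change of the 150 at 2 h kept its sign in every alternative. So did the fold changes at 2 h of the 10 highest scores and of the largest non-overlapping calls, wherever a value was given. Counts have no sign to reverse, and they moved as given above. Replicate 1 libraries have the lowest depth, which limits the precision of low counts in them. Neither depth nor any other cause of the moves between these fits was tested.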

Other observations

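Genes directly next to the 150 that are not among them numbered 258. Their median difference between 0 h and 24 h was 0.09 on the log2(CPM + 1) scale, against -0.01 for all genes outside the list, and 13 of them (5.04%) were above 1, against 0.724% of the genes outside the list. The rule took only identifiers starting with OS. Of the other 53250 features of the rice table, whose identifiers start with EPlOSAG, 18 had a mean of at least 5 CPM at 0 h, and 1 of them had a fall at least as great as rank 150.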
